A study of Mus musculus with 18 samples.

Results

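Antioxidant and glutathione genes of the mouse kidney were described across 18 two-channel cDNA arrays. Probes were taken whose single annotated symbol belonged to the glutathione peroxidases, peroxiredoxins, superoxide dismutases, thioredoxin-named genes, glutathione transferases, glutathione synthesis and reduction enzymes, glutaredoxins, catalase, heme oxygenases or quinone oxidoreductases. Of 37 such genes, 36 were measured on 6 or more of the 18 arrays (Txndc2 was not), against 6818 genes of the whole array with as many. The 36 genes were read by 45 probes, and 8 of them had more than 1 probe.

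Kidneys came from CD1 mice, an outbred strain, that entered one of 3 conditions on postnatal day 2. Constant hypoxia held oxygen at 11%, intermittent hypoxia switched it between 21% and 11% every 4 min, and normoxia was ordinary air. Each condition lasted 1, 2 or 4 weeks and was read by 2 arrays, A and B, per duration, so that each condition had 6 arrays. Every array compared 2 animals of the same condition, one labelled male in the Cy5 channel and one labelled female in the Cy3 channel, and no dyes were swapped. The deposited value is a log2 ratio between those animals, here minus the median ratio of the array. The sources used here do not give which channel is on top of the ratio, so signs are as deposited. A response of equal size in both animals of an array cancels in the ratio. The comparisons below therefore concern the ratio between paired animals, not the level of a transcript. Since no dyes were swapped, a difference between the animals and one between the dyes cannot be told apart in a mean ratio.

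Glutathione is a tripeptide that donates electrons to peroxidases and conjugates reactive electrophiles through the glutathione transferases. The thioredoxin system works in parallel: thioredoxin reductase passes electrons to thioredoxin, which serves the peroxiredoxins that break down hydrogen peroxide. Many of these genes are known targets of the transcription factor NRF2, which binds the antioxidant response element in their promoters. In the kidney, tubule cells with high oxygen use depend on these systems, and the proximal tubule is the main source of the plasma glutathione peroxidase encoded by Gpx3.

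To show where such an element could lie, the core letters TGACNNNGC were sought on both strands of the RefSeq promoter windows (250 bases before to 50 after a gene's start, 300 in all, GRCm38.p6). Of the 36 genes, 30 had a window by symbol, and 6 of these (20.0%) held the letters, against 14.0% of 27025 genes. Some genes have several windows. Counted by window, 6 of 43 (13.95%) held the letters, against 12.39% of 32851. The windows that hold them are printed 5′ to 3′ on the gene's own strand with 20 bases on either side, and capitals mark the matched letters.
Gstm5: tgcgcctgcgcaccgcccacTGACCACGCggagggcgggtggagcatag
Gstm7: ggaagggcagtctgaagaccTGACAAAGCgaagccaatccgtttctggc
Mgst1: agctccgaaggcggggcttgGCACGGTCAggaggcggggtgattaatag
Prdx1: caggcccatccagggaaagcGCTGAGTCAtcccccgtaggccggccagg
Sod1: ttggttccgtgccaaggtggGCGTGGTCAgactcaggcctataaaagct
Txnrd1: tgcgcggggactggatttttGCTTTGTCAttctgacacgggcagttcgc
These stretches lie at chr3:107895792-107895840 on the plus strand (Gstm5), chr3:107931715-107931763 on the minus strand (Gstm7), chr6:138140451-138140499 on the plus strand (Mgst1), chr4:116685446-116685494 on the plus strand (Prdx1), chr16:90220686-90220734 on the plus strand (Sod1) and chr10:82859094-82859142 on the plus strand (Txnrd1). Gstm5 and Gstm7 carry the letters on the promoter strand, and the other 4 genes carry them on the opposite strand. A match describes these letters in this window only and does not show binding.

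The arrays differed in ways that bear on every value below. Constant hypoxia arrays had values for 81.8% to 88.8% of the 16128 probes and deposited medians of -1.17 to -0.15, whereas intermittent hypoxia arrays had 42.9% to 65.7% with medians of -0.027 to 0.028 and normoxia arrays had 41.0% to 67.9% with medians of -0.069 to 0.094. The constant hypoxia arrays were therefore deposited on another footing, and constant hypoxia and that footing cannot be told apart. Constant hypoxia 4 weeks A had the widest spread of ratios (SD 0.89), intermittent hypoxia 2 weeks B the next (SD 0.68), and the other arrays ranged from 0.24 to 0.46. Correlations between arrays over all features ran from -0.18 to 0.74, and those within a group from 0.16 to 0.63. Ratios also drifted with the probe number, so the median over the 100 probe numbers on either side is given beside a gene where it matters, as "neighbours". The Y-linked gene Eif2s3y, which should keep 1 sign if the channel labels hold, lay above 1 on 3 arrays (constant hypoxia 2 weeks A and 4 weeks A, normoxia 4 weeks B), below -1 on 4 (intermittent hypoxia 1 week A, 2 weeks B and 4 weeks B, normoxia 2 weeks A) and within 1 of 0 on 11. In the labels, the female animal of intermittent hypoxia 2 weeks A carries the name of a 1-week animal, and constant hypoxia 4 weeks A has a treatment field that states 2 weeks. Markers of kidney cell types could not be used to check the tissue, since ratios carry no level.

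Of the 36 genes, 29 had a probe with values on at least 15 arrays and in every group of condition and duration, and entered a limma fit together with all 5751 features (4109 named genes and unnamed probes). The other 7 (Gclc, Gsr, Gsto1, Hmox1, Mgst3, Txndc9 and Txnrd1) are described without a test. All adjusted p values are limma's after Benjamini-Hochberg over the 5751 features, with a threshold of 0.05, and an estimate for a condition is the mean of its 3 durations. With signs as deposited, the ratio of Gpx3 was below the array median on nearly every array in all 3 conditions, and no antioxidant gene passed the test for a difference between conditions.

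Gpx3 encodes the secreted, selenium-containing glutathione peroxidase of plasma. Under constant hypoxia its log2 ratio was -1.05 and -0.56 at 1 week, -0.93 and -1.33 at 2 weeks and -0.47 on array B alone at 4 weeks. Intermittent hypoxia gave -0.91 and -0.12 at 1 week, -1.44 and -1.77 at 2 weeks and -0.48 and 0.05 at 4 weeks. Normoxia gave -0.86 and -0.45 at 1 week, -1.31 and -0.84 at 2 weeks and -0.99 and -0.65 at 4 weeks. The ratio was negative on 16 of the 17 arrays with a value, the exception being intermittent hypoxia 4 weeks B, and the 3 conditions overlapped. On 11 of the 17 arrays Gpx3 had the lowest ratio of all tested antioxidant genes, and on 14 it was among the lowest 3. With the sign of the 3 arrays with Eif2s3y above 1 turned, Gpx3 was negative on 14 of the 17 arrays, the lowest on 10 and among the lowest 3 on 12. With the 4 arrays below -1 turned instead, it was negative on 14, the lowest on 8 and among the lowest 3 on 11. By condition the arrays averaged -0.87 ± 0.36 under constant hypoxia (SD, n = 5), -0.78 ± 0.73 under intermittent hypoxia (SD, n = 6) and -0.85 ± 0.29 in normoxia (SD, n = 6). The widest spread was under intermittent hypoxia, where the 2-week arrays were the lowest of the whole set and 1 of the 4-week arrays was above 0.

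The Gpx3 mean differed from 0 in each condition: -0.80 under constant hypoxia (SE 0.15, adjusted p = 0.00879, no value on the 4-week array A), -0.78 under intermittent hypoxia (SE 0.13, adjusted p = 0.00917) and -0.85 in normoxia (SE 0.13, adjusted p = 0.0132). Over all 9 groups it was -0.81 (SE 0.08, adjusted p = 0.000162), and its estimate ranked 16th from the lowest of the 5751 features with signs as deposited. The estimates depend on the direction of the arrays, which is not known. For a gene with 1 sign on nearly every array, turning some arrays brings the mean nearer 0 and widens the spread. The outcome of a turn was therefore largely fixed beforehand and does not show which direction is right. With the sign turned on the 3 arrays with Eif2s3y above 1, the mean over all groups was -0.64 (adjusted p = 0.0901), the fourth-lowest estimate; with the sign turned on the 4 arrays below -1, it was -0.37 (adjusted p = 0.317), the 125th. No condition passed under either turn, and with the 4 arrays turned the intermittent hypoxia mean was 0.098 (adjusted p = 1.00). Turned signs were examined for Gpx3 alone. Leaving out the 3 arrays with Eif2s3y above 1 gave a constant hypoxia mean of -0.87 that no longer passed, and almost no feature of any kind passed there. Leaving out the 4 arrays below -1 gave an intermittent hypoxia mean of -0.68 that no longer passed, and no feature of any kind passed there. A call in a condition was also lost on leaving out 1 array, which leaves 1 in its group. These arrays were constant hypoxia 1 week B, intermittent hypoxia 1 week A or 4 weeks A, and normoxia 1 week A. Far fewer of all features passed as well under constant hypoxia without 1 week B, and under intermittent hypoxia without 1 week A. Over all such fits the Gpx3 mean was -0.89 to -0.72 under constant hypoxia, -0.91 to -0.65 under intermittent hypoxia and -0.93 to -0.77 in normoxia. The call over all groups held in the 17 fits that left out 1 array and could test Gpx3, with estimates of -0.85 to -0.77; without constant hypoxia 4 weeks B it had no value at that duration and was not tested.

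The probes numbered beside the Gpx3 probe, number 14499, were also below the array median. Their median was negative on 16 of the 17 arrays and averaged -0.48 ± 0.35, against -0.83 ± 0.48 for Gpx3 (SD, n = 17). Gpx3 lay below its neighbours on 11 arrays and above them on 6, with a mean difference of -0.35 ± 0.47 (SD, n = 17). Across these 17 arrays the Gpx3 ratio and its neighbours' median had r = 0.39 (permutation p = 0.123) and rho = 0.48 (permutation p = 0.0544), with r = 0.46 (permutation p = 0.0857) without the 2 arrays farthest from the median of the neighbours. Within intermittent hypoxia r was 0.74 (exact permutation p = 0.0889, n = 6) and rho 0.83 (exact permutation p = 0.0583, n = 6). Within normoxia r was 0.45 (exact permutation p = 0.339, n = 6) and rho 0.71 (exact permutation p = 0.136, n = 6), and no r was computed for constant hypoxia, which had 5 arrays with a value. These p values are two-sided; adjusted over the 4 relations, the smallest permutation p was 0.163 for r and 0.117 for rho. With a running median over the same 100 probe numbers on either side removed from each array, the Gpx3 mean was -0.13 under constant hypoxia (adjusted p = 0.758), -0.41 under intermittent hypoxia (adjusted p = 0.117), -0.42 in normoxia (adjusted p = 0.111) and -0.32 over all groups (adjusted p = 0.0196). Only the mean over all groups still passed on that scale.

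**Figure D1:**
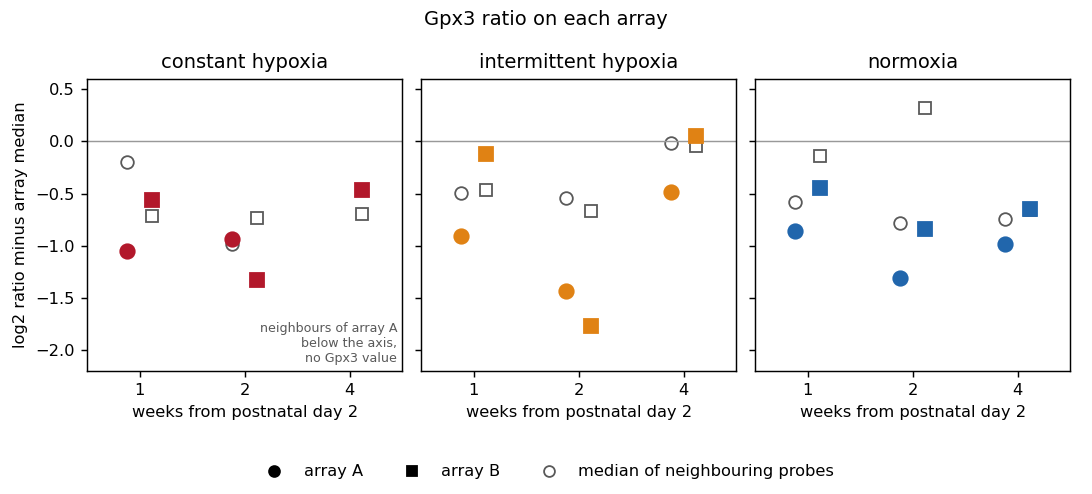
Log2 ratio of Gpx3 minus the array median (y axis) by weeks from postnatal day 2 (x axis), with 1 filled symbol per array, circles for array A and squares for array B, in panels for constant hypoxia, intermittent hypoxia and normoxia. Open symbols give the median of the neighbouring probes on the same array. Gpx3 lies below 0 on 16 of 17 arrays, and its neighbours lie below 0 on 16 of 17.

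By duration, with the conditions together, Gpx3 averaged -0.66 ± 0.35 at 1 week (SD, n = 6), -1.27 ± 0.34 at 2 weeks (SD, n = 6) and -0.51 ± 0.37 at 4 weeks (SD, n = 5). The 2-week arrays ran from -1.77 to -0.84 and overlapped both other durations, and a difference between 2 weeks and the others was not tested. From 1 to 4 weeks the change was 0.34 under constant hypoxia (95% interval -0.51 to 1.19), 0.30 under intermittent hypoxia (95% interval -0.40 to 0.99) and -0.16 in normoxia (95% interval -0.86 to 0.53), and all 3 intervals included 0.

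Between conditions the Gpx3 ratio differed by less than the spread between arrays. The exact permutation test over arrays, two-sided, gave a difference of -0.023 for constant hypoxia minus normoxia (p = 0.883, 5 against 6 arrays), 0.069 for intermittent hypoxia minus normoxia (p = 0.844, 6 against 6) and 0.092 for intermittent minus constant hypoxia (p = 0.775, 6 against 5). The limma fit gave 0.043 (95% interval -0.39 to 0.48) for constant hypoxia minus normoxia and 0.069 (95% interval -0.33 to 0.47) for intermittent hypoxia minus normoxia. These intervals also hold differences away from 0, and the smallest difference that this number of arrays could detect was not computed.

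Genes whose ratios ran most like Gpx3 were sought by Pearson's r over at least 15 shared arrays among 3881 genes, whose median r was 0.028. The highest were Idh2, the mitochondrial NADP-dependent isocitrate dehydrogenase (r = 0.79), Babam2, a subunit of the BRCA1-A complex (r = 0.76), Cbr2, a carbonyl reductase (r = 0.74), Gtpbp8, a GTP-binding protein (r = 0.73), and Ccnd3, cyclin D3 (r = 0.72). The lowest were Ewsr1 and Agfg2 (r = -0.76 each) and Aasdhppt (r = -0.72). Among antioxidant genes, Gpx4 (r = 0.60), Gstm2 (r = 0.53) and Gstm7 (r = 0.49) came closest. The points share arrays and the drift along the probe numbers: the Ccnd3 probe lies 70 numbers from that of Gpx3, and 15 of the 50 most similar genes (30.0%) lie within 1000 numbers, against 13.2% of all genes compared.

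Gpx4, the peroxidase that reduces lipid hydroperoxides in membranes, shared the sign of Gpx3. Constant hypoxia gave 0.054 and -0.29 at 1 week, -0.22 and -0.86 at 2 weeks and -0.54 on array B alone at 4 weeks. Intermittent hypoxia gave -0.52 and -0.59 at 1 week, -0.71 and -1.18 at 2 weeks and -0.34 and -0.10 at 4 weeks. Normoxia gave -0.44 and -0.18 at 1 week, -0.51 and -0.52 at 2 weeks and -0.78 and -0.10 at 4 weeks. All but 1 of 17 arrays were negative, the exception being constant hypoxia 1 week A, and the conditions overlapped. Its mean passed under intermittent hypoxia at -0.57 (SE 0.12, adjusted p = 0.0183) and over all groups at -0.46 (adjusted p = 0.000569), while normoxia (-0.42, adjusted p = 0.0629) and constant hypoxia (-0.40, adjusted p = 0.0563) did not. Its neighbours averaged -0.42 over the 18 arrays, and with the running median removed the intermittent hypoxia mean was -0.20 (adjusted p = 0.288) and that over all groups -0.084 (adjusted p = 0.389). The intermittent hypoxia call was lost without any one of 5 of its 6 arrays (largest adjusted p = 0.0915) and without the 4 arrays with Eif2s3y below -1 (adjusted p = 0.207). Gpx1, the intracellular peroxidase, had a positive mean and a wide spread: its ratio ran from -1.24 in normoxia 2 weeks B to 1.23 in constant hypoxia 4 weeks B, and it passed in no condition (0.52 under constant hypoxia, adjusted p = 0.0989).

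The peroxiredoxins reduce hydrogen peroxide with thioredoxin, and the 3 members measured sit in different compartments. Prdx4, the peroxiredoxin of the endoplasmic reticulum, was -0.47 and -0.33 at 1 week, -0.73 and -0.33 at 2 weeks and -1.82 and -0.94 at 4 weeks under constant hypoxia. It was 0.017 and -0.14 at 1 week, -0.32 and -0.22 at 2 weeks and -0.23 and -0.058 at 4 weeks under intermittent hypoxia. It was -0.54 and 0.013 at 1 week, 0.088 and -0.15 at 2 weeks and 0.21 and -0.50 at 4 weeks in normoxia. All 6 constant hypoxia arrays were negative and overlapped with the lower normoxia arrays. The constant hypoxia mean of -0.77 (SE 0.13, adjusted p = 0.00668) passed and had the smallest p of all tested antioxidant genes there. It still passed with the running median removed (-0.41, adjusted p = 0.0367) and without the 2 arrays of widest spread (-0.62, adjusted p = 0.00899), but not without the 3 arrays with Eif2s3y above 1 (-0.56, adjusted p = 0.0723) or without constant hypoxia 1 week B (adjusted p = 0.0575). Over all groups the mean was -0.36 (adjusted p = 0.00231). The means under intermittent hypoxia (-0.16) and in normoxia (-0.15) did not pass.

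Prdx4 was read by probe numbers 11544 and 15576, which agreed in direction but not in size. Probe 15576 read -3.20 on constant hypoxia 4 weeks A, where the neighbours of that probe had a median of -2.34, whereas probe 11544 read -0.44 there, with neighbours at -0.011. Fitted apart, both probes passed under constant hypoxia, at -1.15 for 15576 (adjusted p = 0.00719) and -0.40 for 11544 (adjusted p = 0.0239).

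Prdx1, the cytosolic peroxiredoxin, had ratios of 0.10 and 0.38 at 1 week, -0.0042 and -0.12 at 2 weeks and 0.27 on array B alone at 4 weeks under constant hypoxia. Intermittent hypoxia gave 0.39 and 0.45 at 1 week, 0.16 and 0.22 at 2 weeks and -0.28 and 0.085 at 4 weeks. Normoxia gave 0.55 and 0.12 at 1 week, 0.56 and 0.21 at 2 weeks and 0.21 and 0.45 at 4 weeks. Its ratio was positive on 14 of 17 arrays, and it passed over all groups (0.22, adjusted p = 0.0102) but in no single condition (normoxia 0.35, adjusted p = 0.0609). The probes did not run together: numbers 2691 and 3561 averaged 0.026 and 0.42 over 17 shared arrays with r = -0.28, and the mean over all groups was 0.021 with the running median removed (adjusted p = 0.813). Prdx3, the mitochondrial peroxiredoxin, ranged from -0.88 to 0.37 and passed in no condition.

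Catalase, the peroxisomal enzyme that splits hydrogen peroxide, gave -0.69 and 0.32 at 1 week, -0.82 and -1.13 at 2 weeks and 0.06 and 0.18 at 4 weeks under constant hypoxia. Intermittent hypoxia gave -0.15 and -0.46 at 1 week, -0.32 and -0.52 at 2 weeks and -0.29 and -0.27 at 4 weeks. Normoxia gave -0.19 on array B alone at 1 week, -0.39 and 0.23 at 2 weeks and -0.72 and 0.29 at 4 weeks. All 6 intermittent hypoxia arrays were negative within a narrow range, and constant hypoxia spanned more than normoxia and intermittent hypoxia. Cat passed over all groups only (-0.28, adjusted p = 0.0261), and with the running median removed it did not (-0.16, adjusted p = 0.15). Sod1, the cytosolic superoxide dismutase, ranged from -0.72 to 0.57 and passed in no condition, with means of 0.07 under constant hypoxia, 0.17 under intermittent hypoxia and 0.0029 in normoxia.

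Heme oxygenases break heme down to biliverdin, iron and carbon monoxide; Hmox2 is the constitutive form and Hmox1 the inducible one. The tested Hmox2 probe, number 6396, gave -0.25 and -0.20 at 1 week, -0.24 and -0.86 at 2 weeks and -0.44 and -0.39 at 4 weeks under constant hypoxia. Intermittent hypoxia gave -0.058 and 0.056 at 1 week, -0.42 and -0.33 at 2 weeks and -0.029 and -0.83 at 4 weeks. Normoxia gave -0.12 and -0.13 at 1 week, -0.076 and -0.16 at 2 weeks and -0.51 and -0.30 at 4 weeks. It was negative on 17 of 18 arrays and passed under constant hypoxia (-0.40, SE 0.11, adjusted p = 0.0252) and over all groups (-0.29, adjusted p = 0.00289). A further probe, number 5255, had values on only 9 arrays, none of them in normoxia, and read higher than probe 6396 on 8 of the 9 (mean 0.47 against -0.39, r = -0.39). When both were averaged the constant hypoxia mean was -0.11 (adjusted p = 0.509), so the call rests on which probe is used. It was also lost with the running median removed (-0.14, adjusted p = 0.539), without the 2 arrays of widest spread (-0.39, adjusted p = 0.0539) and without any one of constant hypoxia 1 week A, 1 week B, 2 weeks B and 4 weeks A (largest adjusted p = 0.122). The Hmox2 call over all groups was also lost when both probes were averaged, and again with the running median removed. Hmox1, measured on 13 arrays and not tested, averaged 0.20 ± 0.13 under constant hypoxia (SD, n = 6), 0.50 ± 0.28 under intermittent hypoxia (SD, n = 4) and 0.17 ± 0.38 in normoxia (SD, n = 3), with 12 of 13 values above 0.

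Among the enzymes of glutathione synthesis and reduction only Gss, the synthetase of the last step, was tested, and it passed in no condition (0.087 under constant hypoxia, -0.16 under intermittent hypoxia, -0.13 in normoxia). Gclc, the catalytic subunit of the rate-limiting ligase, was read by probe numbers 4056 and 14139, which averaged 0.29 and -0.49 over the 12 arrays they shared and lay in the same order on 11 of them. Gsr, the reductase that regenerates glutathione, averaged 0.35 ± 0.42 under constant hypoxia (SD, n = 6), -0.11 ± 0.41 under intermittent hypoxia (SD, n = 3) and -0.013 ± 0.35 in normoxia (SD, n = 5), with ranges that overlapped.

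**Figure D2:**
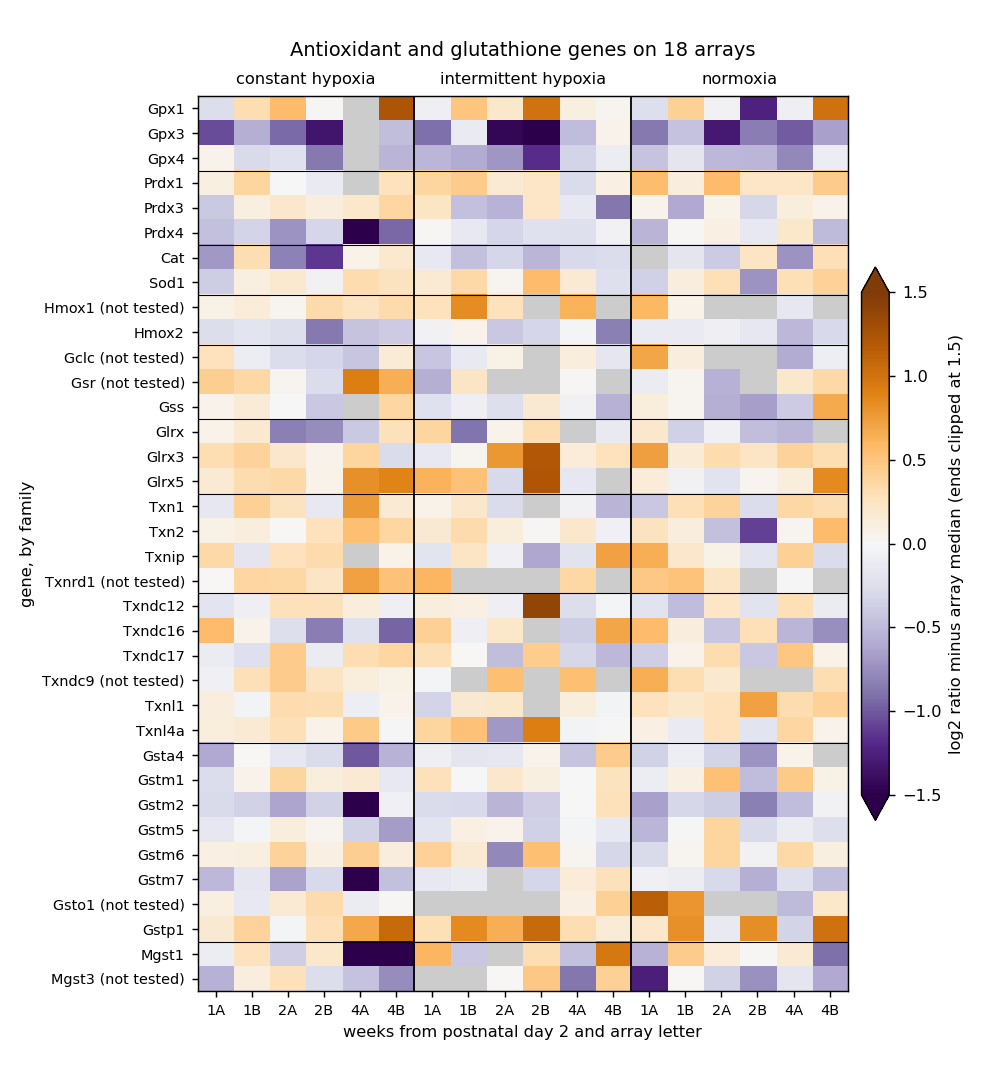
Log2 ratio minus the array median for each of the 36 antioxidant and glutathione genes (rows, grouped by family) on the 18 arrays (columns, by condition, weeks and array letter), with orange above 0, purple below 0, grey for no value and the scale clipped at 1.5 in either direction. Gpx3, Gpx4, Hmox2 and Gstm2 are the rows purple on all but 1 of their measured arrays, and constant hypoxia 4 weeks A holds the darkest cells of Prdx4, Gstm2 and Gstm7. The darkest cells of Mgst1 are on constant hypoxia 4 weeks A and B, both past the clip.

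Glutaredoxins use glutathione to reduce mixed disulfides or to hand on iron-sulfur clusters. Glrx3, a monothiol glutaredoxin of iron handling, gave 0.30 and 0.39 at 1 week, 0.19 and 0.048 at 2 weeks and 0.38 and -0.28 at 4 weeks under constant hypoxia. Intermittent hypoxia gave -0.15 and 0.044 at 1 week, 0.78 and 1.20 at 2 weeks and 0.13 and 0.27 at 4 weeks. Normoxia gave 0.73 and 0.15 at 1 week, 0.32 and 0.23 at 2 weeks and 0.40 and 0.31 at 4 weeks. It was positive on 16 of 18 arrays, with the highest values on the intermittent hypoxia 2-week arrays, and passed over all groups (0.30, adjusted p = 0.00225; 0.18 and 0.0252 with the running median removed). The intermittent hypoxia mean of 0.38 lay just outside the threshold (adjusted p = 0.0502).

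Glrx5, the mitochondrial monothiol glutaredoxin, gave 0.15 and 0.32 at 1 week, 0.34 and 0.068 at 2 weeks and 0.82 and 0.89 at 4 weeks under constant hypoxia. Intermittent hypoxia gave 0.62 and 0.52 at 1 week, -0.29 and 1.21 at 2 weeks and -0.16 on array A alone at 4 weeks. Normoxia gave 0.14 and -0.049 at 1 week, -0.21 and 0.032 at 2 weeks and 0.12 and 0.85 at 4 weeks. Constant hypoxia arrays were all positive and overlapped with both other conditions, and the mean over all groups passed (0.29, adjusted p = 0.0282). With the running median removed that mean was 0.034 (adjusted p = 0.716), and it was lost without any 1 of 6 arrays (largest adjusted p = 0.0634). Glrx, the dithiol glutaredoxin of the cytosol, had the lowest mean of the family (-0.18 ± 0.42, SD, n = 16) and passed in no condition.

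Of the thioredoxins, Txn1 of the cytosol, Txn2 of the mitochondrion and Txnip, which binds and inhibits thioredoxin, were tested, and none passed in any condition or over all groups. Txn2 was above 0 on all 6 constant hypoxia arrays (0.078 and 0.11 at 1 week, 0.011 and 0.26 at 2 weeks and 0.54 and 0.37 at 4 weeks). Its 2 lowest values were on the normoxia 2-week arrays, at -0.47 and -1.10. Txnrd1, the cytosolic thioredoxin reductase, was measured on 12 arrays and not tested in the main fit, and 11 of its 12 values lay above 0, with a mean of 0.36 ± 0.23 (SD, n = 12). Fitted with features that had values on only 6 arrays or more, it passed under constant hypoxia, where all 6 arrays had values and 12.7% of features passed. Its values averaged 0.37 there, against 0.48 under intermittent hypoxia (n = 2) and 0.30 in normoxia (n = 4).

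The 6 genes named for thioredoxin domains or likeness include proteins with other known roles, such as Txnl1, a partner of the proteasome, and Txnl4a, a component of the spliceosome. Txnl1 passed over all groups (0.18, adjusted p = 0.0287), the smallest estimate of those that did. Its constant hypoxia ratios were 0.11 and -0.043 at 1 week, 0.33 and 0.32 at 2 weeks and -0.088 and 0.053 at 4 weeks. Those under intermittent hypoxia were -0.34 and 0.17 at 1 week, 0.20 on array A alone at 2 weeks and 0.12 and -0.039 at 4 weeks. Those in normoxia were 0.26 and 0.20 at 1 week, 0.26 and 0.72 at 2 weeks and 0.32 and 0.41 at 4 weeks. All 6 normoxia values were positive, and the normoxia mean of 0.36 lay just outside the threshold (adjusted p = 0.053). Txndc12, Txndc16, Txndc17 and Txnl4a passed nowhere, with means over arrays from -0.087 (Txndc16) to 0.14 (Txnl4a).

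The cytosolic glutathione transferases conjugate glutathione to electrophiles, and the 5 mu-class genes among the 8 measured are close paralogs whose cDNA may hybridise to each other's probes, so a value may not belong to 1 gene alone. Gstm7 gave -0.50 and -0.18 at 1 week, -0.64 and -0.30 at 2 weeks and -2.96 and -0.47 at 4 weeks under constant hypoxia. Intermittent hypoxia gave -0.14 and -0.11 at 1 week, -0.32 on array B alone at 2 weeks and 0.13 and 0.28 at 4 weeks. Normoxia gave -0.067 and -0.10 at 1 week, -0.30 and -0.57 at 2 weeks and -0.23 and -0.48 at 4 weeks. The constant hypoxia mean of -0.84 (SE 0.22, adjusted p = 0.0211) was weighted by constant hypoxia 4 weeks A, where its neighbours had a median of -2.36; without the 2 arrays of widest spread it was -0.43 (adjusted p = 0.0198), and with the running median removed -0.19 (adjusted p = 0.386). The constant hypoxia call was lost without any one of its 1-week and 2-week arrays (largest adjusted p = 0.0954). The mean over all groups was -0.40 (adjusted p = 0.0269), and -0.063 with the running median removed (adjusted p = 0.484).

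Gstm2 gave -0.29 and -0.34 at 1 week, -0.63 and -0.35 at 2 weeks and -1.69 and -0.064 at 4 weeks under constant hypoxia. Intermittent hypoxia gave -0.27 and -0.29 at 1 week, -0.54 and -0.37 at 2 weeks and -0.0049 and 0.28 at 4 weeks. Normoxia gave -0.65 and -0.31 at 1 week, -0.38 and -0.82 at 2 weeks and -0.49 and -0.05 at 4 weeks. It was negative on 17 of 18 arrays and passed under constant hypoxia (-0.56, SE 0.16, adjusted p = 0.0267) and over all groups (-0.40, adjusted p = 0.0039). Probe number 4802 lay above probe 15107 on all 18 arrays, with means of -0.039 and -0.77 and r = 0.14. Fitted apart, only 15107 passed under constant hypoxia (-1.20, adjusted p = 0.0115), while 4802 read 0.068 (adjusted p = 0.624). With the running median removed the constant hypoxia mean was -0.24 (adjusted p = 0.191). Without the 2 arrays of widest spread it was -0.29 (adjusted p = 0.0986), and the call was lost without any one of the constant hypoxia arrays other than 4 weeks B (largest adjusted p = 0.128).

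Gsta4, the alpha-class transferase that acts on 4-hydroxynonenal, gave -0.61 and 0.0092 at 1 week, -0.16 and -0.28 at 2 weeks and -0.996 and -0.54 at 4 weeks under constant hypoxia. Intermittent hypoxia gave -0.076 and -0.18 at 1 week, -0.16 and 0.049 at 2 weeks and -0.44 and 0.45 at 4 weeks. Normoxia gave -0.34 and -0.092 at 1 week, -0.34 and -0.72 at 2 weeks and 0.067 on array A alone at 4 weeks. The ratio was negative on 13 of 17 arrays, and it passed under constant hypoxia (-0.43, SE 0.13, adjusted p = 0.0335) and over all groups (-0.24, adjusted p = 0.0262). The constant hypoxia call was lost without the 2 arrays of widest spread (-0.35, adjusted p = 0.0983) and without any one of 5 constant hypoxia arrays (largest adjusted p = 0.149). With the running median removed it was -0.34 (adjusted p = 0.164).

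Gstp1, the pi-class transferase, had the highest mean of all tested antioxidant genes. Constant hypoxia gave 0.17 and 0.39 at 1 week, -0.027 and 0.29 at 2 weeks and 0.69 and 1.06 at 4 weeks. Intermittent hypoxia gave 0.30 and 0.85 at 1 week, 0.65 and 1.06 at 2 weeks and 0.32 and 0.15 at 4 weeks. Normoxia gave 0.21 and 0.82 at 1 week, -0.14 and 0.82 at 2 weeks and -0.34 and 1.01 at 4 weeks. It was positive on 15 of 18 arrays, and the conditions overlapped. Over all groups it passed (0.46, SE 0.096, adjusted p = 0.00262; 0.24 and 0.0607 with the running median removed), and the intermittent hypoxia mean of 0.55 did not (adjusted p = 0.0617). Gstm1, Gstm5 and Gstm6 stayed between -0.78 and 0.55 on every array and passed nowhere, and Gsto1, not tested, ranged from -0.50 to 1.14 over 12 arrays.

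The microsomal transferases Mgst1 and Mgst3 are membrane proteins that protect lipids. Mgst1 had the widest spread of the tested antioxidant genes (SD 0.75, n = 17), from -1.93 and -1.53 on the constant hypoxia 4-week arrays to 0.97 on intermittent hypoxia 4 weeks B, and passed in no condition. Its neighbours had a median of 0.36 on constant hypoxia 4 weeks A, so its low value there stood apart from the probes around it. Mgst3, not tested, averaged -0.27 ± 0.40 under constant hypoxia (SD, n = 6), 0.0070 ± 0.62 under intermittent hypoxia (SD, n = 4) and -0.52 ± 0.45 in normoxia (SD, n = 6).

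**Figure D3:**
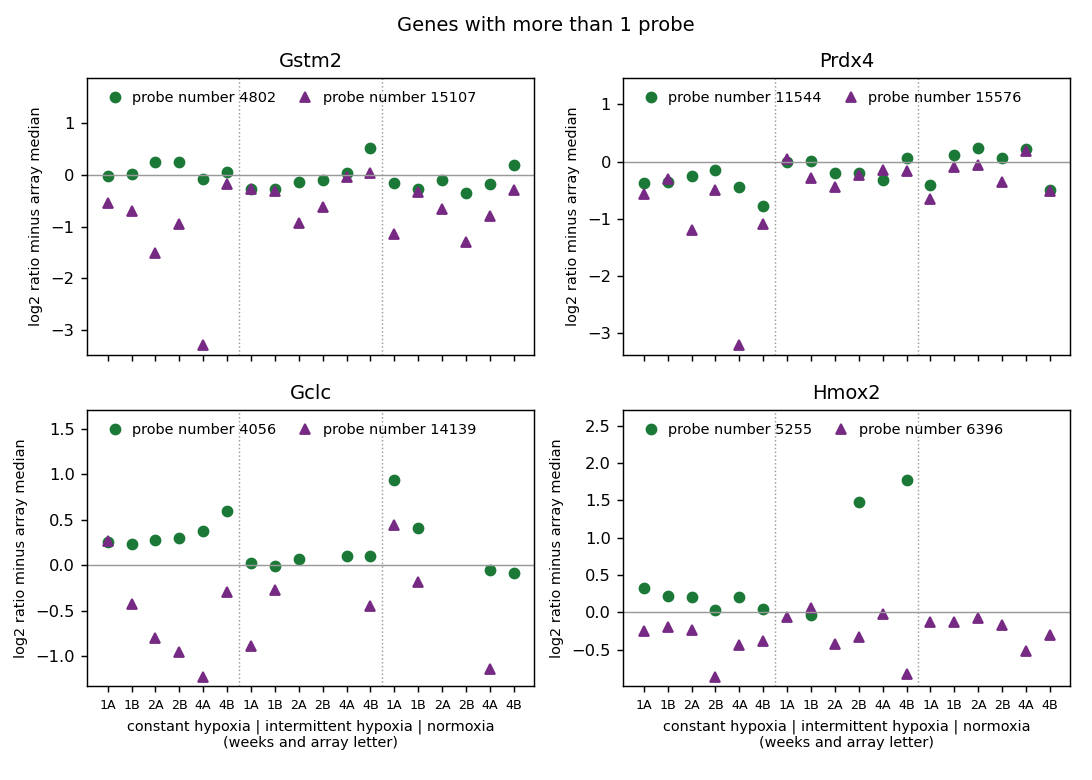
Log2 ratio minus the array median (y axis) of both probes of Gstm2, Prdx4, Gclc and Hmox2 on each array (x axis, by condition, weeks and array letter), with circles for the lower and triangles for the higher probe number. The higher-numbered probes of Gstm2 and Prdx4 read -3.28 and -3.20 on constant hypoxia 4 weeks A, and Hmox2 probe 5255 has no value in normoxia.

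Counted over the 29 tested genes, the mean ratio differed from 0 for 6 genes under constant hypoxia, all below 0, where 18.3% of all features passed. It differed for 2 genes under intermittent hypoxia (Gpx3 and Gpx4, both below 0), where 5.79% of features passed, and for Gpx3 alone in normoxia, where 3.53% passed. Over all groups 13 genes passed, 5 above 0 and 8 below, against 38.1% of features. With each array left out in turn, Glrx3, Prdx4, Gstp1, Hmox2 and Gstm2 passed over all groups in all 18 fits. Gpx3, Gpx4 and Prdx1 passed in the 17 fits in which they could be tested, which leave out the fit without constant hypoxia 4 weeks B, since they had no value on 4 weeks A. By contrast, Cat was lost without any one of 5 arrays, Gsta4, Gstm7 and Glrx5 without any one of 6, and Txnl1 without any one of 8. As a share of the tested genes these counts are 20.7%, 6.90%, 3.45% and 44.8%, close to the share of all features in each case. The median estimate of the 29 genes was 0.070 under constant hypoxia, -0.020 under intermittent hypoxia and -0.099 in normoxia, against -0.0055, -0.0069 and -0.0044 over all features. The genes above 0 with the smallest p in a condition were Glrx5 (0.43, adjusted p = 0.0679) and Gstp1 (0.43, adjusted p = 0.0822) under constant hypoxia, Glrx3 under intermittent hypoxia and Txnl1, Prdx1 and Glrx3 in normoxia (0.35, adjusted p = 0.0781), and none of them passed there. Families averaged over their genes on each array gave -0.29 ± 0.30 (n = 5), -0.35 ± 0.28 (n = 6) and -0.43 ± 0.37 (n = 6) for the peroxidases, -0.23 ± 0.30, -0.084 ± 0.20 and 0.034 ± 0.15 for the peroxiredoxins, and -0.16 ± 0.23, 0.050 ± 0.091 and -0.037 ± 0.16 for the cytosolic transferases under constant hypoxia, intermittent hypoxia and normoxia in that order (SD, n = 6 each for the last 2 families). Without centring, all 28 genes past the threshold under constant hypoxia and all 21 over all groups lay below 0. There 98.9% and 72.1% of all features passed, and their median was -0.79 and -0.29.

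**Figure D4:**
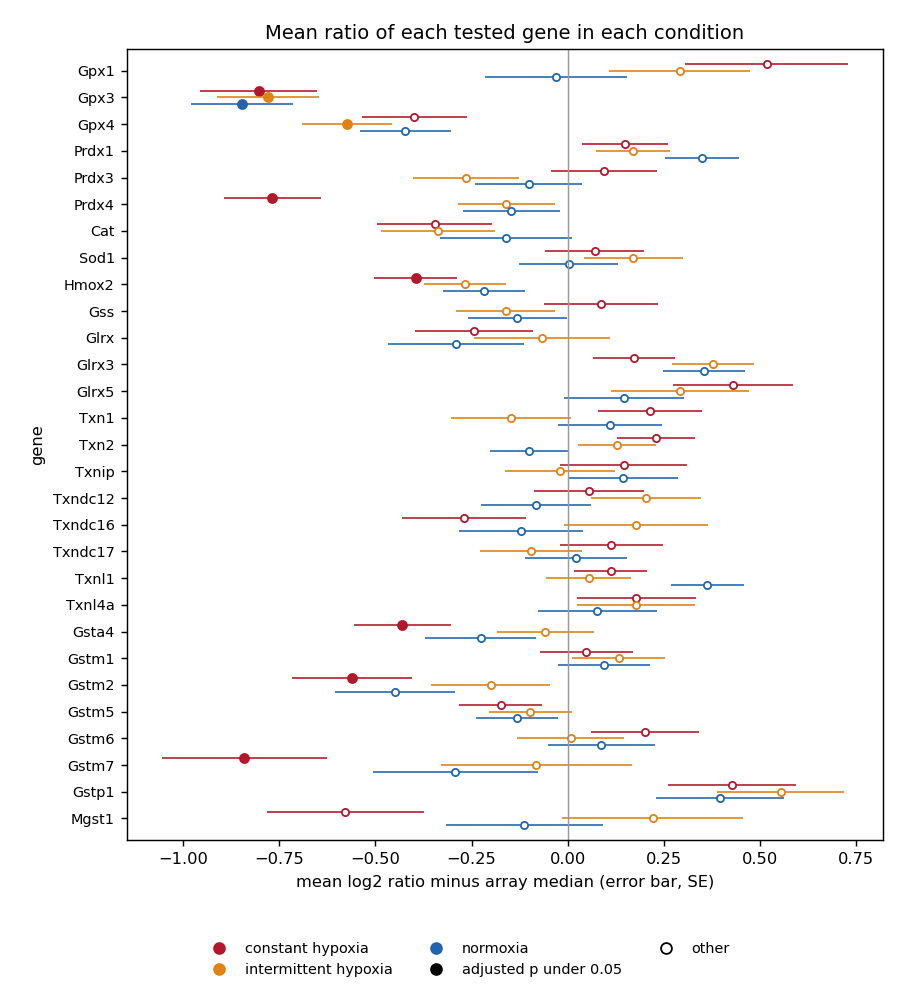
Mean log2 ratio minus the array median (x axis) of the 29 tested antioxidant genes (rows) under constant hypoxia, intermittent hypoxia and normoxia, with SE bars and filled symbols where the adjusted p was under 0.05. Gpx3 is filled in all 3 conditions at -0.80, -0.78 and -0.85, and the other filled symbols are Gpx4 under intermittent hypoxia and Prdx4, Gstm7, Hmox2, Gstm2 and Gsta4 under constant hypoxia.

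Between conditions, over all durations, 0 of the 29 genes passed for constant hypoxia minus normoxia, and 0% of all features did. At an unadjusted limma p under 0.05 there were 2 genes and 433 features. These were Prdx4 at -0.62 (95% interval -1.01 to -0.24, adjusted p = 0.647) and Txn2 at 0.33 (95% interval 0.021 to 0.64, adjusted p = 0.647). Next came Gpx1 (0.55, 95% interval -0.056 to 1.15), Txnl1 (-0.25), Gstm7 (-0.55, 95% interval -1.20 to 0.11) and Glrx5 (0.28). Without constant hypoxia 4 weeks B, which leaves 4 weeks A alone at that duration, 2 of 23 tested genes passed, against 10.6% of features. Of the 29 estimates 16 were positive and 13 negative, with a median of 0.024 against -0.036 over all features.

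For intermittent hypoxia minus normoxia 0 of 29 genes passed (0% of features), and none had an unadjusted limma p under 0.05, against 237 features. The estimates with the smallest p were Txnl1 at -0.31 (95% interval -0.62 to 0.0041), Txn2 at 0.23 (95% interval -0.08 to 0.54), Txndc12 at 0.29, Prdx1 at -0.18, Txn1 at -0.26 and Gpx1 at 0.32 (95% interval -0.24 to 0.88), each with adjusted p = 0.995. For intermittent minus constant hypoxia 0 of 29 passed (0.0348% of features), and 3 genes had an unadjusted limma p under 0.05, against 654 features: Prdx4 (0.61, adjusted p = 0.389), Mgst1 (0.80, adjusted p = 0.393) and Gstm7 (0.76, adjusted p = 0.425). Below 0 the smallest p belonged to Prdx3 (-0.36), Txn1 (-0.36) and Gss (-0.25). These comparisons share arrays, and a p above the threshold does not show that the conditions acted alike, since the intervals given above also hold differences away from 0.

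**Figure D5:**
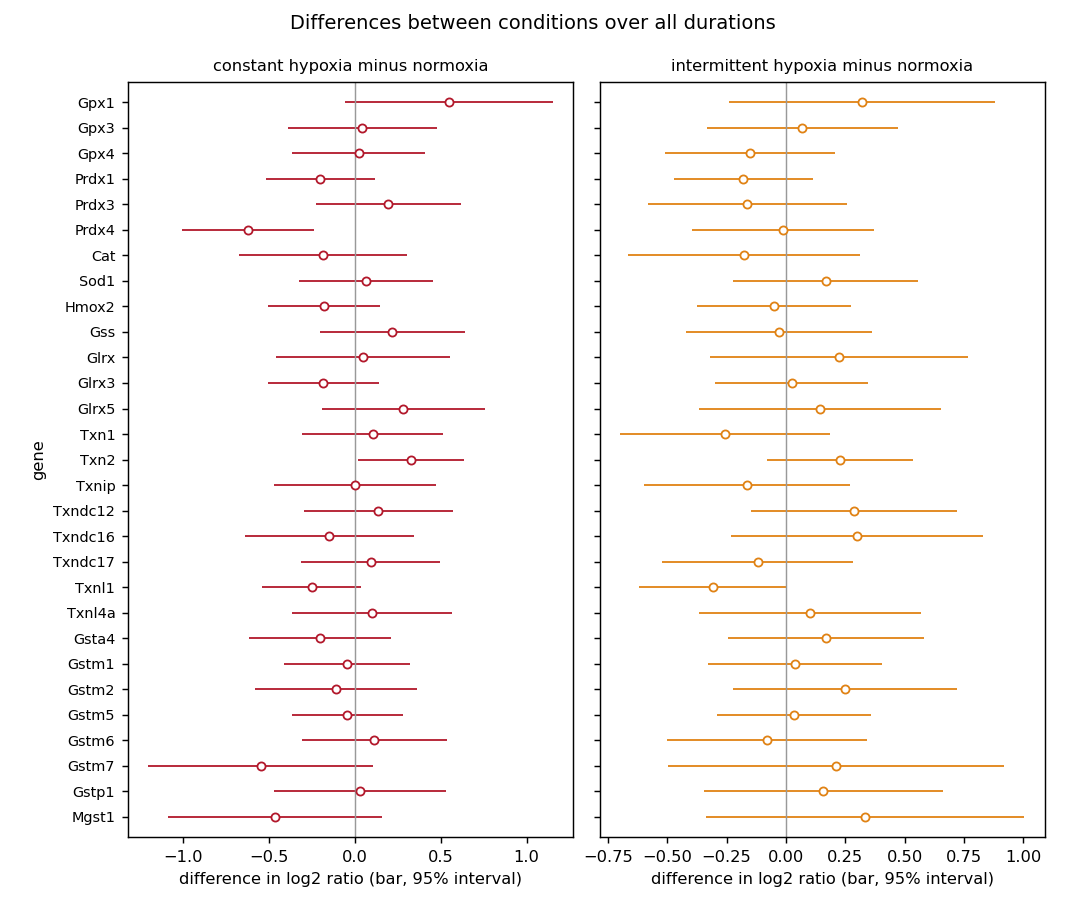
Difference in mean log2 ratio (x axis, 95% interval) for constant hypoxia minus normoxia (left) and intermittent hypoxia minus normoxia (right) for the 29 tested antioxidant genes (rows), with 1 symbol per gene. The interval excludes 0 for Prdx4 and Txn2 in the left panel and for no gene in the right panel, and no difference passed after adjustment.

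Within a duration, with 2 arrays against 2, no gene passed either. For constant hypoxia minus normoxia, 0 of 29 genes passed at 1 week (0% of features), at 2 weeks (0.0174%) and at 4 weeks (0.0348%), while 0, 2 and 4 genes had an unadjusted limma p under 0.05, against 142, 586 and 397 features. At 2 weeks the smallest p belonged to Txn2 (0.92, adjusted p = 0.223) and Cat (-0.89, adjusted p = 0.415). At 4 weeks it belonged to Prdx4 (-1.23), Mgst1 (-1.36), Gstm7 (-1.36) and Gsta4 (-0.84), each with adjusted p = 0.715. For intermittent hypoxia minus normoxia, 0 of 29 passed at 1 week (0%), at 2 weeks (0.0869%) and at 4 weeks (0%), while 0, 3 and 0 genes had an unadjusted limma p under 0.05, against 167, 712 and 502 features. The 3 genes at 2 weeks were Txn2 (0.85, adjusted p = 0.173), Glrx3 (0.72, adjusted p = 0.258) and Gpx1 (1.25, adjusted p = 0.263).

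From 1 to 4 weeks, 0 of 29 genes passed under constant hypoxia, under intermittent hypoxia or in normoxia (0% of features in each), and 5, 1 and 1 genes had an unadjusted limma p under 0.05, against 585, 153 and 491 features. Under constant hypoxia these were Mgst1 (-1.81, adjusted p = 0.422), Prdx4 (-0.98), Gstm7 (-1.37), Txndc16 (-0.90) and Gpx1 (1.20). Under intermittent hypoxia it was Prdx1 (-0.52, adjusted p = 1), and in normoxia Txndc16 (-0.97, adjusted p = 0.537).

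The size of the ratio, which does not depend on which channel is on top, was also compared. The median absolute ratio of the antioxidant genes per array averaged 0.29 ± 0.097 under constant hypoxia, 0.25 ± 0.085 under intermittent hypoxia and 0.29 ± 0.079 in normoxia (SD, n = 6 each). All features gave 0.24 ± 0.062, 0.24 ± 0.10 and 0.25 ± 0.044 in the same order. The conditions overlapped in both sets. The SD over arrays had a median of 0.35 for the 29 genes and 0.31 for all features, and 4 of the 29 genes (Gpx3, Gpx4, Hmox2 and Gstm2; 13.8%) kept 1 sign as deposited on all but 1 array at most, against 8.82% of features.

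Genes that supply or serve these systems were counted beside them from a list of 46, of which 18 were tested. Under constant hypoxia 2 passed, both below 0: Cth, which makes cysteine for glutathione (-0.74, adjusted p = 0.0308), and Msrb3, a methionine sulfoxide reductase (-0.50, adjusted p = 0.0189). These are 2 of 18, against 18.3% of all features. Under intermittent hypoxia none passed, against 5.79% of all features (limma, 5 with an unadjusted p under 0.05). In normoxia Tkt, the transketolase of the pentose phosphate pathway, passed (-0.39, adjusted p = 0.0475), where 3.53% of all features did. Over all groups 7 of 18 passed, against 38.1% of all features, with Esd and the ferritin heavy chain gene Fth1 above 0 and Bach1, Cth, Idh2, Msrb3 and Tkt below. Nfe2l2, which encodes NRF2, and the metallothionein gene Mt2 were tested and did not pass. No gene of the list passed for a difference between conditions over all durations, with 1 at an unadjusted limma p under 0.05 for constant hypoxia minus normoxia, 0 for intermittent hypoxia minus normoxia and 3 for intermittent minus constant hypoxia.

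Selenoproteins other than the peroxidases and genes of selenium handling were taken from a list of 20, of which 11 were tested, among them Lrp2, an endocytic receptor of the proximal tubule. Under constant hypoxia 3 of the 11 passed, all below 0, against 18.3% of all features, most of them below 0: Selenom (-0.77, adjusted p = 0.0293), Selenow (-0.62, adjusted p = 0.0070) and Selenok (-0.61, adjusted p = 0.0453). None passed under intermittent hypoxia, where 10 of 11 were below 0, or in normoxia, where 5 were (limma, 2 and 3 with an unadjusted p under 0.05). Among sources of superoxide and hydrogen peroxide only 3 of 19 were tested (Cyba, Rac1 and Maoa). Maoa, the monoamine oxidase of the outer mitochondrial membrane, was above 0 under constant hypoxia (0.35, adjusted p = 0.0162) and intermittent hypoxia (0.32, adjusted p = 0.0437). Of all features 18.3% and 5.79% passed there. Calls in these lists and in the cell markers below are given for the main fit only. With the running median removed, 1.58% of all features passed under constant hypoxia.

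Markers of other cells moved on the same arrays. Hbb-b1, a beta-globin gene of red blood cells, had a mean ratio of -1.42 under constant hypoxia (adjusted p = 0.0116), where 18.3% of all features passed. Of the 10 listed red cell markers 2 were tested, with an average per array of -2.06 to -0.054 under constant hypoxia, -1.20 to 0.31 under intermittent hypoxia and -0.61 to 0.14 in normoxia. The lowest red cell value was on constant hypoxia 4 weeks A, the array with the lowest Prdx4, Gstm2, Gstm7 and Mgst1. C1qa, a macrophage complement gene, had a mean of -0.55 under intermittent hypoxia (adjusted p = 0.0159), where 5.79% of all features passed. Of the 3 tested leukocyte markers of 8, 2 lay below 0 and 1 above 0 there, and only C1qa passed. Their average per array ran from -0.22 to 0.13 under constant hypoxia, -0.78 to 0.041 under intermittent hypoxia and -0.71 to 0.40 in normoxia, so the conditions overlapped. Proximal tubule markers (2 of 10 tested, Lrp2 and Miox) averaged -0.26 to 0.38 per array under constant hypoxia, -0.46 to 0.020 under intermittent hypoxia and -0.44 to 0.27 in normoxia. Neither these nor the 2 podocyte markers, the 2 endothelial markers or Calb1 of the distal tubule passed in any condition (limma, with 0, 1 and 1 proximal tubule markers and none of the others at an unadjusted p under 0.05 under constant hypoxia, intermittent hypoxia and normoxia), and no marker of the loop of Henle, collecting duct, adrenal gland or fat was tested. The part of blood, leukocytes or tubule content in the ratios of the antioxidant genes was not tested, and in whole kidneys fewer cells of a type and less RNA per cell cannot be told apart.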

How the data were processed

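RNA of 2 CD1 mouse kidneys of the same condition was hybridised to each of 18 spotted cDNA arrays, 60 ug of total RNA per channel, per the labels' protocols. The authors deposited 1 value per probe and array, taken here as a log2 ratio, because 2 raised to the value is a whole-number ratio with a denominator of at most 600 for 44.9% to 81.7% of 1500 values sampled per array. The sources used here do not give background correction, normalization, or which channel is on top.

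Of 16128 probes, 9604 had 1 gene symbol in GEO's platform annotation and 213 several, and 9496 matched the RefSeq gene table. Probes with values on at least 15 arrays and in all 9 groups were kept, averaged per symbol (5751 features), and centred on each array's median. limma 3.58.1 (R 4.3.3; lmFit, eBayes) fitted 9 group means of 2 arrays each; p values are two-sided, Benjamini-Hochberg adjusted over all features, threshold 0.05. Each array held other animals, per the labels, except that the female animal of intermittent hypoxia 2 weeks A carries the name of a 1-week animal. Whether it is the same animal is not known. Descriptions used Python 3.11.15, pandas 2.3.3 and scipy 1.17.1, and the fit was tested on simulated data. Correlation p values come from permutations of the arrays. The number of arrays limits the precision.

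Named were Gpx3, every gene past the threshold, the 3 genes of each sign with the smallest p for each condition and each difference over all durations, and the highest and lowest of each family. The genes and lists were chosen with earlier results of these data known, among them the low Gpx3 ratio in normoxia and intermittent hypoxia, so these are not independent support. Alternatives changed the centring, scaling, filter, probe averaging, probe-number drift, replicate block, robust fit, arrays with strong Eif2s3y ratios and single arrays; leaving out the 2 arrays of widest spread, and turning the sign of arrays with strong Eif2s3y ratios for Gpx3, were chosen after seeing the data.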

Additional observations from a re-analysis of the deposited data

Results flagged for a closer look

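Single arrays that stood far from the others of their condition were sought for all 36 antioxidant genes, in 103 sets of 4 to 6 arrays. Of these, 6 sets held one, and chance flags about 1 set in 20. Under constant hypoxia, 4 weeks A read -1.69 for Gstm2, against -0.63 to -0.064 on the other arrays, and -2.96 for Gstm7, against -0.64 to -0.18. The same condition held 2 weeks B at -0.86 for Hmox2, against -0.44 to -0.20, and 1 week A at -0.40 for Prdx3, against 0.094 to 0.37. Intermittent hypoxia 2 weeks B read 1.39 for Txndc12, against -0.25 to 0.11, and normoxia 4 weeks B read 0.85 for Glrx5, against -0.21 to 0.14. Of the 6 values, 2 lay on constant hypoxia 4 weeks A and 1 on intermittent hypoxia 2 weeks B, the arrays with the widest spread of all ratios.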

How the results depend on the processing

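Centring mattered most. With ratios as deposited, 28 genes passed for the constant hypoxia mean (98.9% of features) and 21 over all groups (72.1%). Of these, 6 and 8 in that order also passed after centring. For constant hypoxia minus normoxia 28 passed (96.9%), with 20 at 1 week (77.7%) and 22 at 4 weeks (91.2%), and for intermittent minus constant hypoxia 26 did (93.7%). The median of all features was -0.81 and 0.80 for these 2 differences over all durations. Signs then turned: the constant hypoxia means of Glrx5 (-0.36), Gpx1 (-0.24) and Gstp1 (-0.36), the means over all groups of Prdx1 (-0.049) and Txnl1 (-0.098), constant hypoxia minus normoxia of Glrx5 (-0.49), Gpx1 (-0.20), Txn2 (-0.44) and Gpx3 (-0.70, with -1.12 at 1 week and -0.69 at 4 weeks), intermittent minus constant hypoxia of Gss (0.47), Prdx3 (0.38) and Txn1 (0.40), and the Gpx3 change over 4 weeks in normoxia (0.038), while Gpx3 for intermittent minus constant hypoxia was 0.74.

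With the running median removed, 6 genes passed over all groups (4 of the 13 passing otherwise, plus Glrx and Mgst1), where 15% of all features did (limma). Under constant hypoxia 1 passed (1.58% of features), under intermittent hypoxia 0 (2.87%). In normoxia 1 passed (Gstm2, in place of Gpx3), where 2.3% of features did. Gpx3 then read -0.13 under constant hypoxia, -0.41 under intermittent hypoxia and -0.42 in normoxia, -0.27 for intermittent minus constant hypoxia, 0.57 for constant hypoxia minus normoxia at 2 weeks, -0.077 for intermittent hypoxia minus normoxia at 4 weeks, and -0.16 and 0.18 for the change over 4 weeks under intermittent hypoxia and in normoxia. Prdx1 under intermittent hypoxia was -0.061. The cause was not tested.

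Leaving out the arrays with strong Eif2s3y ratios leaves 1 array in their groups. Without the 3 above 1, no antioxidant gene and almost no other feature passed under constant hypoxia, where Gpx3 was -0.87. Without the 4 below -1, no feature of any kind passed under intermittent hypoxia. Gpx3 was then -0.68 under intermittent hypoxia, -0.36 for its change over 4 weeks there and -0.035 for constant hypoxia minus normoxia. With the sign turned on those above 1, Gpx3 read -0.49, -0.78, -0.63 and -0.64 under constant hypoxia, under intermittent hypoxia, in normoxia and over all groups; turned on those below -1 it read -0.80, 0.098, -0.41 and -0.37. None of the 8 passed, although the first turn left the intermittent hypoxia mean unchanged and the second the constant hypoxia mean. Without the 2 arrays of widest spread, which leaves 1 array in their groups, more antioxidant genes passed in normoxia, and so did more of all features. Gpx3 for constant hypoxia minus normoxia was also negative after scaling the arrays (-0.084), by the exact permutation test (-0.023) and with array letter as a replicate block (-0.0044). The letters share only a name: deviations of same-lettered arrays correlated from -0.37 to 0.44 over 36 pairs (median 0.0069, 8 above 0.1). With the replicate block 7, 3, 1 and 13 genes passed under constant hypoxia, intermittent hypoxia, normoxia and over all groups. Of all features 17.4%, 4.52%, 2.8% and 37.2% passed in the same order. With the filter at 6 arrays, Gpx3 for intermittent minus constant hypoxia was -0.012 and Hmox2 under intermittent hypoxia 0.048. Single probes gave -0.10 for Prdx1 (2691) under intermittent hypoxia and 0.068 for Gstm2 (4802) under constant hypoxia. A robust fit changed no direction or call among 80 results.

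Leaving out 1 array leaves 1 in its group. In each condition it left no antioxidant gene passing in some fits, and the number of all features that passed changed as well. Between conditions it gave 0 to 2 for constant hypoxia minus normoxia, 0 to 3 at 4 weeks, 0 to 3 for intermittent minus constant hypoxia and 0 to 4 for the constant hypoxia change over 4 weeks, the upper ends without constant hypoxia 4 weeks B, which leaves 4 weeks A alone and assumes that it varies like the other groups. There, with 23 genes tested, 10.6%, 12.3%, 12.6% and 14.1% of all features passed in the same order. It gave 0 to 2 for intermittent hypoxia minus normoxia at 2 weeks, the upper end without intermittent hypoxia 2 weeks A, where 26 genes were tested and 12.8% of features passed. The Gpx3 mean ran from -0.89 to -0.72 under constant hypoxia, -0.91 to -0.65 under intermittent hypoxia and -0.93 to -0.77 in normoxia. Its differences ran from -0.038 to 0.12 for constant hypoxia minus normoxia (-0.40 to 0.089 at 1 week, -0.29 to 0.17 at 2 weeks), -0.062 to 0.20 for intermittent hypoxia minus normoxia (-0.25 to 0.53 at 1 week), -0.11 to 0.16 for intermittent minus constant hypoxia, and -0.096 to 0.69 and -0.37 to 0.045 for the change over 4 weeks under intermittent hypoxia and in normoxia. Ratios carry no signal over background, so the precision of dim probes is unknown.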
